A study of Mus musculus with 8 samples.

Results

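Delta cells are the somatostatin-secreting endocrine cells of the pancreatic islet. The members described here are the 6 pooled delta cell values per gene, 1 for each condition, out of the 54 condition and cell type columns in all (6 conditions in 9 cell types). They were chosen by the cell type name that the authors gave their nuclei. Islets came from C57BL/6J mice, either wild type (WT) or whole-body knock-ins for Med14 S983A, a serine to alanine change in a central subunit of Mediator, through which transcription factors reach RNA polymerase. Islets of each genotype were cultured and left untreated (CON), exposed to forskolin (FSK), an activator of adenylyl cyclase, or exposed to Exendin-4 (Ex-4), a GLP-1 receptor agonist, at 10 nM, in either case for 16 h, after which nuclei were sorted on DAPI and profiled by combinatorial barcoding. Because the knock-in was present in every cell of the animal, a difference in delta cell nuclei need not originate in delta cells. Each of the 8 deposited sublibraries held nuclei of all 6 conditions, so the sublibraries are not replicates of a condition and the table holds 1 value per condition and cell type. No test between conditions was possible, and genotype cannot be told apart from islet preparation or from the barcode wells of a condition. About 100 islets went into a nuclear preparation. The age of the animals, the number of animals per condition and the dose of FSK on these islets are not given in the sources used here.

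Somatostatin released by delta cells acts on neighbouring beta and alpha cells and restrains the secretion of insulin and glucagon. The homeodomain factor Hhex is needed to keep the delta cell program, and delta cells extend neurite-like processes through which a small number of cells contact many neighbours. They are electrically excitable, and cAMP acts on the somatostatin gene through a cAMP response element in its promoter, the sequence bound by CREB.

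The promoter sequences of 4 genes are shown first, because the delta cell account below turns on Sst, which differed little between the untreated genotypes, on Hhex, and on Kcnd2 and Dscam, which were lower in the mutant. Each is the 250 bases before the annotated start in RefSeq (GRCm38.p6), printed 5′ to 3′ on the strand of the gene. Capitals mark the full cAMP response element (TGACGTCA) and the homeodomain core (TAAT or its reverse complement ATTA).
Sst, chr16:23890845-23891094, minus strand: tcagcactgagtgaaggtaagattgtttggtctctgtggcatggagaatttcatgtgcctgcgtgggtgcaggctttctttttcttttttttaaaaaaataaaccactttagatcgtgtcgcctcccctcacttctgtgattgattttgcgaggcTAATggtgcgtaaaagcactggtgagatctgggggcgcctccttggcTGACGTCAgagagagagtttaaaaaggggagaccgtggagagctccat
Hhex, chr19:37434591-37434840, plus strand: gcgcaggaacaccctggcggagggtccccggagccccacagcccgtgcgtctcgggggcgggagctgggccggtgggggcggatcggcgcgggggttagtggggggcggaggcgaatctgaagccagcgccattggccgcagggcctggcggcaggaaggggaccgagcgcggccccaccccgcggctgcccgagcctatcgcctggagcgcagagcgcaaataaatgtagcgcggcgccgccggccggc
Kcnd2, chr6:21215096-21215345, plus strand: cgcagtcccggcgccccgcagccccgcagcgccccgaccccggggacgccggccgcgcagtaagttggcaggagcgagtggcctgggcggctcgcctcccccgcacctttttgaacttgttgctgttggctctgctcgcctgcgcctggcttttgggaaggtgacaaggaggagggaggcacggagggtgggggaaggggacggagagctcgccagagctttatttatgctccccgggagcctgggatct
Dscam, chr16:97170736-97170985, minus strand: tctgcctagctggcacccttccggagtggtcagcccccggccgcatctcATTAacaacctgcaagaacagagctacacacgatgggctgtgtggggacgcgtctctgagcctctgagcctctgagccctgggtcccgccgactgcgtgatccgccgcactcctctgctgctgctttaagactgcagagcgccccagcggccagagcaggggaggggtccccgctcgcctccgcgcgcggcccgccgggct
The Sst promoter held 1 full element whose first base lay at position -48 from the start, and 1 homeodomain core. Neither motif was found in the Hhex or Kcnd2 windows, and Dscam held 1 homeodomain core. Of 32851 RefSeq promoters of this length, 508 (1.55%) held the full element, 5836 (17.8%) the shorter form TGACG or CGTCA, which also lies within every full element, and 18041 (54.9%) the homeodomain core. Promoters were matched for 20 of the 28 genes described below as delta-enriched, with 25 start sites. The full element was in 1 of the 25, the shorter form in 2 (those of Sst and Unc5c) and the homeodomain core in 11 start sites of 10 genes, so apart from Sst and Unc5c no matched start site held either form of the cAMP response element in this window.

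The delta cell columns held 362410 counts in WT CON, 427549 in WT FSK, 431797 in WT Ex-4, 566358 in mutant CON, 631433 in mutant FSK and 552609 in mutant Ex-4. Levels are counts per 10000 (CP10K), and 1 count equalled 0.0276 CP10K in the shallowest delta column. Intervals in parentheses are exact 95% Poisson intervals of the counts. They cover counting error only and say nothing of the spread between mice. Delta cells held 8.93% of the counts of WT CON islets and 15.1% of those of mutant CON islets. For each gene, less RNA per nucleus and a different mixture of nuclei within a pool cannot be told apart.

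The labels were read beside the defining genes. The authors named the clusters from their top marker genes, so this is no independent check. Sst, which encodes the somatostatin precursor, was at 2.87 CP10K (2.34 to 3.48) in WT CON delta cells and 2.95 (2.52 to 3.43) in mutant CON delta cells. In WT CON it rested on 9 counts in beta cells (0.0299 CP10K), and no count was seen among 419293 in alpha cells, which allows up to 0.0715 CP10K at a floor of 3 counts. The other WT CON columns also held no Sst count. In mutant CON, Sst was at 0.130 CP10K in beta cells on 25 counts, at 0.148 in alpha cells on 12 counts and at 0.644 in macrophages on 3 counts. Hhex was at 0.938 CP10K (0.650 to 1.31) in WT CON delta cells, where its 34 counts were the only ones of that condition, and at 0.865 (0.640 to 1.14) in mutant CON delta cells, where it had 49 counts, against at most 2 in any other mutant CON column. Both defining genes were thus highest in the columns named delta cells in both genotypes, although for Hhex the intervals of the shallow macrophage, muscle and neuron columns reached the delta level.

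**Figure D1:**
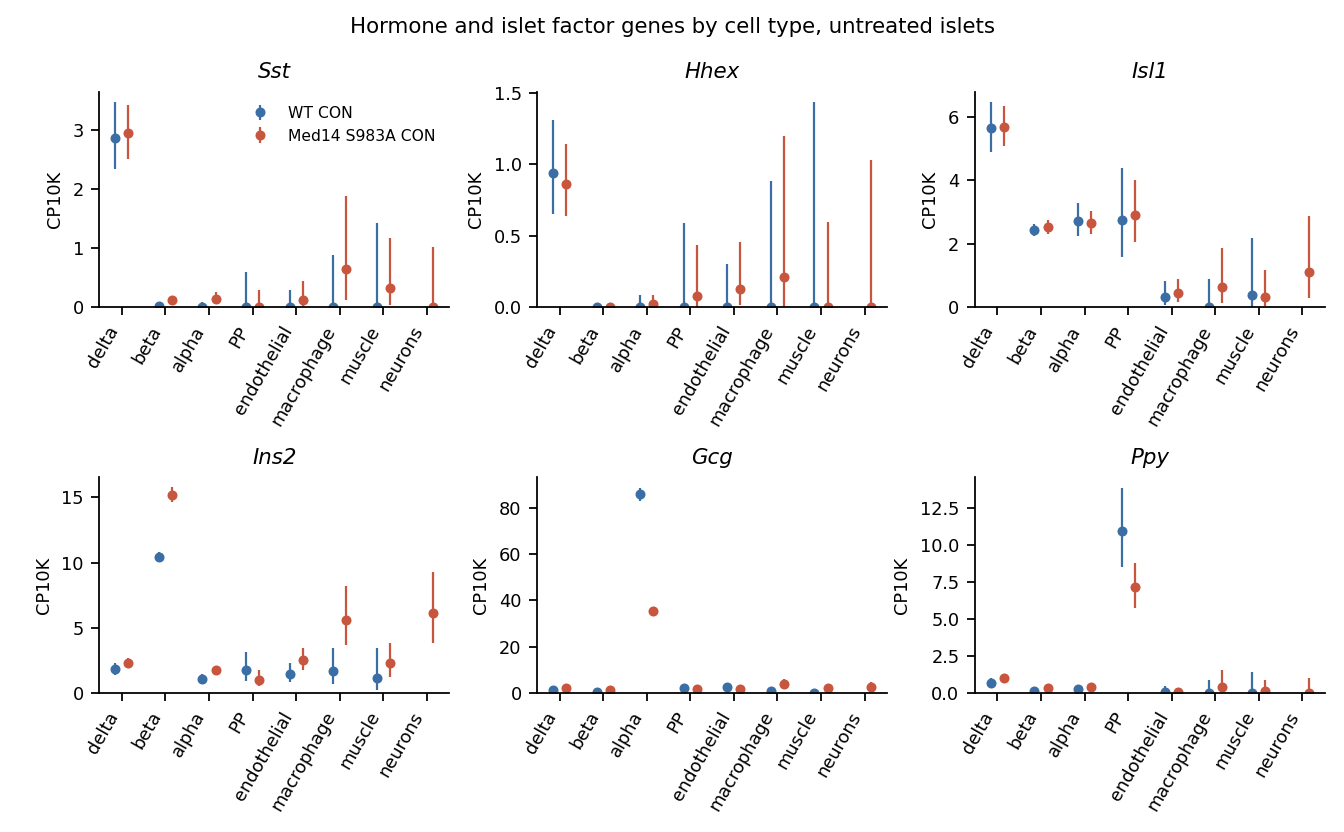
Level of 6 genes (CP10K, vertical axes from 0) by cell type in untreated WT (blue) and Med14 S983A (red) islets, with 95% Poisson intervals of the counts as bars and columns under 20000 counts left out. Sst and Hhex are highest in delta cells in both genotypes, with wide Hhex intervals in the shallow columns, Isl1 is at 5.63 and 5.67 CP10K in delta cells and between 2.42 and 2.90 in the other endocrine types, and Ins2, Gcg and Ppy are highest in beta, alpha and PP cells.

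Hormone transcripts of the other islet cells were present in delta columns at low level. Glucagon (Gcg) was at 1.16 CP10K in WT and 1.96 in mutant untreated delta cells, against 85.8 and 35.2 in alpha cells. Ins2, 1 of the 2 mouse insulin genes, was at 1.82 and 2.28 CP10K in delta cells and at 10.4 and 15.2 in beta cells. Ins2 was also at 1.10 CP10K in WT CON alpha cells and 1.47 in WT CON endothelial cells, so a low level of it was not particular to delta cells. Pyy, a peptide of the PP family, was at 2.18 (1.73 to 2.72) and 2.12 (1.76 to 2.53) CP10K in delta cells, between the levels in alpha cells (0.572 and 0.481) and in PP cells (5.47 and 5.09). Ppy itself was at 0.690 and 1.01 CP10K in delta cells and at 10.9 and 7.12 in PP cells.

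Markers of beta, alpha and ductal cells were measurable in the delta columns as whole lists, and those of endothelial cells, macrophages and muscle cells were close to 0. The 12 beta markers came to 19.5 CP10K in WT and 12.7 in mutant CON delta cells, or 18.7% and 19.3% of the level summed in beta cells. The 9 alpha markers came to 4.61 and 5.61 CP10K, or 4.04% and 10.3% of their sum in alpha cells, and the alpha factor Irx1 was at 0 in WT CON delta cells. The 10 endothelial markers together came to 0.0828 and 0.353 CP10K, the 7 macrophage markers to 0.0276 and 0.212, and the 7 muscle and stellate markers to 0.0276 and 0.194, each under 1.5% of the sum in the home cell type. Of 8 ductal markers, 4 had a count in WT CON delta cells, where Bicc1 (3.04 CP10K) and Pkhd1 (2.90) made up most of their 7.28 CP10K, while Sox9, Cftr, Spp1 and Muc1 were at 0. No count of the 5 cell cycle genes in the table was seen in WT CON delta cells and 1 gene had a count in mutant CON. The part these transcripts play in the differences below was not tested. The column named neurons held less of the 6 neuron and Schwann markers than delta cells did (6.67 against 10.8 CP10K in WT CON and 4.19 against 6.41 in mutant CON), so these markers, of which Rbfox3 and Elavl4 account for most, did not set that column apart from delta cells.

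Other genes known as delta cell markers varied. Of the 18 listed, 14 could be read. Ghsr, the ghrelin receptor, had 5 counts in WT CON delta cells (0.138 CP10K, 0.0448 to 0.322) and none in any other cell type of that condition, while in mutant CON every cell type listed it at 0. Crhr2, a receptor for urocortins, was at 0.441 CP10K (0.252 to 0.717) in WT CON and 0.230 (0.122 to 0.393) in mutant CON delta cells, and at most at 0.0247 in another type. Rbp4, which encodes a retinol carrier, was at 1.43 CP10K (1.07 to 1.88) in WT CON delta cells against at most 0.286 elsewhere in that condition. Spock3, an extracellular proteoglycan, was at 2.98 CP10K (2.44 to 3.60) in WT CON delta cells against at most 0.0817 in the other deep columns. The leptin receptor gene Lepr was listed at 0 in all 6 delta columns, and Casr, the calcium-sensing receptor, was as high in WT CON PP cells (4.18 CP10K) as in WT CON delta cells (4.22). Frzb was at 0.855 CP10K in WT CON delta cells and at 0.754 in beta cells. Erbb4 had 3 counts in WT CON delta cells (0.0828 CP10K), against 0.482 CP10K in PP cells on 3 counts and 6.67 in neurons on 6 counts.

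Genes that set delta cells apart were taken as those at 1 CP10K or more in both CON delta columns whose log2(CP10K + 1) was at least 1 (2-fold) above that of every other cell type with 20000 counts or more, in both genotypes. Those were beta, alpha, PP, endothelial, macrophage and muscle cells in WT and, in the mutant, neurons as well. Of 1479 genes at 1 CP10K or more in both columns, 28 (1.89%) met this, and they are called delta-enriched. The nuclei had been clustered on these same genes, so the list describes the clusters and carries no test. Hhex was not among them because its level lay under 1 CP10K, and Sst was in the middle of the list when genes were ordered by the smaller of their differences in the 2 genotypes. In WT CON the highest other type was alpha cells for 9 of the 28, beta cells for 8, PP cells for 6, endothelial cells for 3 and muscle cells for 2. In mutant CON it was neurons for 9 and PP cells for 7.

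**Figure D2:**
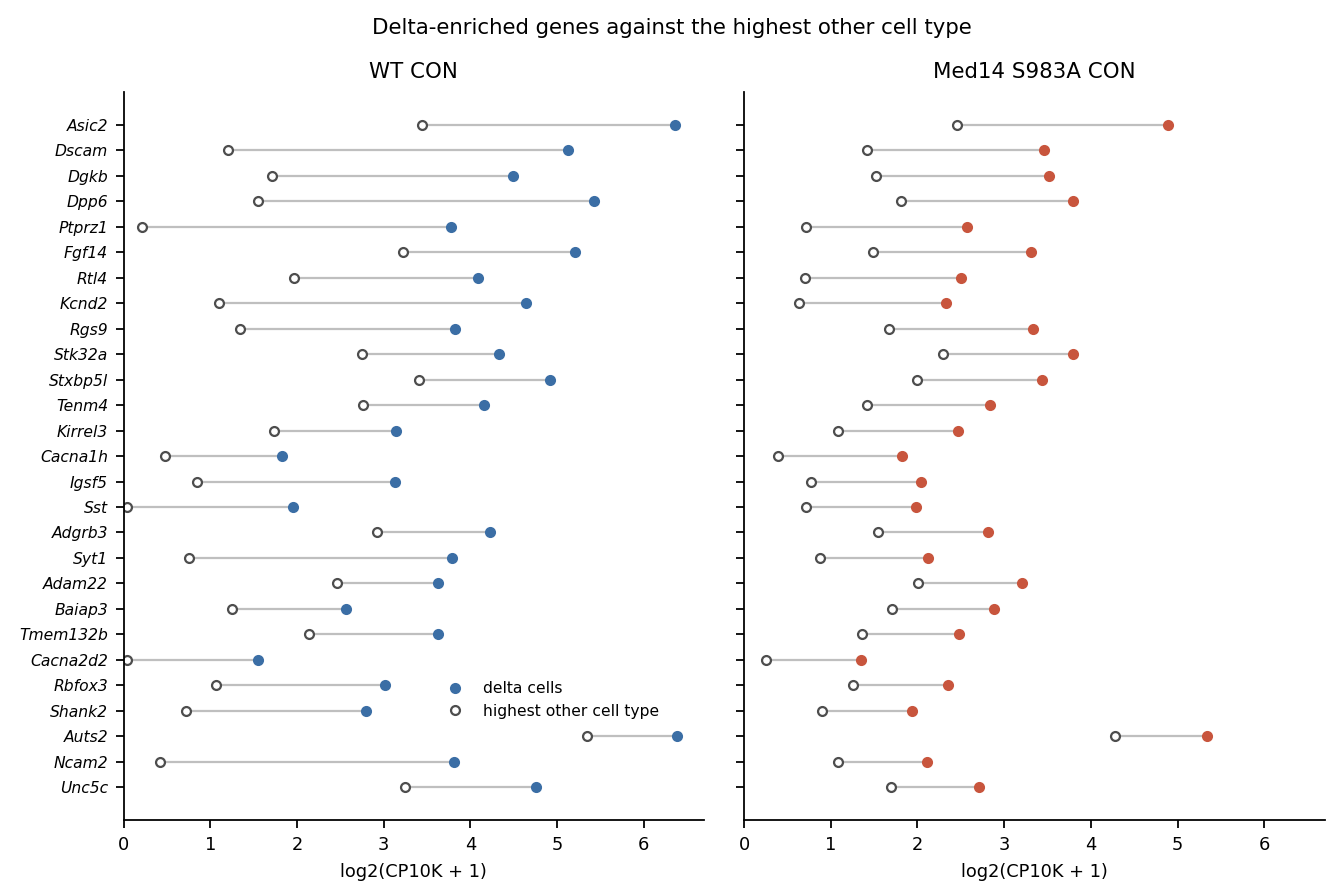
Level of 27 of the 28 delta-enriched genes, as log2(CP10K + 1), in delta cells (filled) and in the highest other cell type of 20000 counts or more (open), in WT CON (left) and Med14 S983A CON (right), ordered by the smaller of the 2 differences. The median difference over the 28 is 1.96 in WT and 1.33 in the mutant, and in 24 of 28 genes the gap is narrower in the mutant. The 2 panels do not compare with the same cell types. Neurons are included only in the mutant, where they are the highest other type for 9 of the 28.

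The delta-enriched genes are given here by known role, a sorting made after their names were seen, and comparisons are with the columns of 20000 counts or more unless a shallow column is named. Of the channel genes, Asic2, a proton-gated sodium channel, led the list, at 81.5 CP10K in WT CON delta cells against 9.87 in alpha cells, the highest of those columns, and at 28.7 in mutant CON delta cells against 4.47 in neurons. In the shallow WT CON column of neurons it was at 15.6 CP10K (8.51 to 26.1) on 14 counts. Kcnd2, which encodes the A-type potassium channel subunit Kv4.2, was at 24.0 and 4.04 CP10K in WT and mutant CON delta cells, and Dpp6, an auxiliary subunit of the same channels, at 41.9 and 12.9. In no other deep column of either CON condition was Kcnd2 above 1.14 CP10K. Fgf14, an intracellular FGF that binds voltage-gated sodium channels, was at 35.9 and 8.90 CP10K. The T-type calcium channel gene Cacna1h was at 2.54 and 2.52 CP10K, against at most 0.389 in those columns. Cacna2d2, an auxiliary calcium channel subunit, was at 1.93 and 1.54 CP10K, against 0.0266 in WT CON beta cells and 0.188 in mutant CON endothelial cells. In WT CON neurons it was at 2.22 CP10K on 2 counts (0.269 to 8.03), an interval that includes the delta level.

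Genes of adhesion and guidance follow. Dscam, an immunoglobulin-family adhesion molecule of neurites, was at 34.0 CP10K in WT CON delta cells, which was 26.0 times the level in alpha cells (1.31), and at 10.0 in mutant CON delta cells, against 1.67 in neurons. The shallow WT CON column of neurons read higher than alpha cells, at 11.1 CP10K (5.33 to 20.4) on 10 counts of Dscam. Ptprz1, a receptor tyrosine phosphatase, was at 12.7 CP10K against 0.163 in endothelial cells in WT CON, the latter on 2 counts, and at 4.94 in mutant CON. Ncam2, Kirrel3, Tenm4, Adgrb3, Adam22 and the netrin receptor gene Unc5c also have such roles and were between 7.84 and 26.0 CP10K in WT CON. Unc5c was also found in WT CON PP cells, at 8.52 CP10K, Tenm4 in beta cells, at 5.79, and Adgrb3 in alpha cells, at 6.61. In the shallow WT CON column of neurons Adgrb3 was at 10.0 CP10K (4.58 to 19.0) on 9 counts. Kirrel3 was at 6.67 CP10K (2.45 to 14.5) there on 6 counts. Both intervals include the delta level of the gene.

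Other members have roles in vesicle release, in signalling or elsewhere. Syt1, the calcium sensor of synaptic vesicle fusion, was at 12.8 CP10K in WT CON delta cells and 3.35 in mutant CON delta cells, and at no more than 0.837 in another deep column. Stxbp5l (tomosyn-2), which restrains SNARE assembly, was at 29.3 CP10K in WT and 9.82 in mutant CON delta cells, and Baiap3, which acts in dense-core vesicle traffic, at 4.91 and 6.36. Dgkb, a diacylglycerol kinase, was at 21.5 and 10.5 CP10K, Rgs9, which speeds GTP hydrolysis by G proteins, at 13.2 and 9.08, and the kinase gene Stk32a at 19.2 and 12.9. Rbfox3, the splicing factor known as NeuN, was at 7.09 and 4.10 CP10K. Rtl4 and Igsf5 were at 16.0 and 7.75 CP10K in WT CON. Tmem132b, Shank2 and Auts2 were also on the list and are named here after their values were seen.

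Values near the limit show how sharp it was. Auts2, Ncam2 and Unc5c were just inside, with smaller differences of 1.03, 1.03 and 1.01 on the log2(CP10K + 1) scale. Gm49948, Pex5l and Arg1 were just outside, at 0.9996, 0.976 and 0.957. Among the 26 islet transcription factors in the table, none was delta-enriched. Isl1 came closest, at 5.63 CP10K (4.88 to 6.46) in WT CON and 5.67 (5.06 to 6.32) in mutant CON delta cells against 2.73 and 2.90 in PP cells, a smaller difference of 0.77. Pdx1, shared by beta and delta cells, was at 0.662 and 0.900 CP10K in delta cells and at 1.64 and 1.86 in beta cells. Adcy8, a calcium-stimulated adenylyl cyclase, was at 3.23 and 1.45 CP10K in delta cells against at most 0.279 elsewhere in the deep columns, with a smaller difference of 0.94.

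The 28 genes were followed into the 4 treated conditions, whose values did not enter the rule. Nuclei of all conditions had been clustered together, so the delta columns there are not independent and the counts carry no test. In WT FSK 25 of 28 were still 2-fold above every deep column of that condition, in WT Ex-4 27, in mutant FSK 21 and in mutant Ex-4 18. Sst was among the 15 that met the limit in all 4. None failed in all 4, and Cacna2d2, Auts2 and Unc5c met it in 1. Chosen in those 4 conditions alone, the list would have held 18 genes, 15 of them shared with the 28.

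The delta-enriched genes were long. Their median length from first to last annotated base was 425 kb (GRCm39, GENCODE M39), from 4.41 kb for Sst (chromosome 16, 23707321 to 23711733, minus strand) to 1106 kb for Auts2 (chromosome 5, 131466171 to 132572183). Over the 9051 kept genes with a length the median was 39.6 kb. Genes set apart by the same rule in beta, alpha and PP cells had medians of 141, 122 and 718 kb. The PP list held only 3 genes. A length above that of kept genes was therefore not particular to the delta list. Asic2 spans 1088 kb of chromosome 11 (80770995 to 81859283, minus strand), Kcnd2 515 kb of chromosome 6 (21214866 to 21729804, plus strand), Dscam 580 kb of chromosome 16 (96392040 to 96972145) and Unc5c 370 kb of chromosome 3 (141170977 to 141540685). Hhex spans 5.92 kb of chromosome 19 (37423258 to 37429179, plus strand). In nuclei most reads come from unspliced RNA, to which long introns add sites for priming. Of the 28, 26 overlap at least 1 other annotated gene, and Sst and Ptprz1 do not. No source used here says whether counting was strand-specific, so reads of overlapping genes cannot be told apart.

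The next question was whether untreated Med14 S983A delta cells differed from untreated WT delta cells. Genes whose 6-column delta mean fell in the lowest 40% of detected genes were left out, which kept 9256, and a gene was counted at 1.5-fold on the log2(CP10K + 1) scale (0.58). Of these, 210 (2.27%) were higher and 443 (4.79%) lower in the mutant, with a median difference of 0.02. Poisson intervals were apart for 594 genes higher in the mutant (6.42%) and 868 lower (9.38%), and they were apart for every gene past 1.5-fold.

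Sst and Hhex themselves differed little between the untreated genotypes. Sst was at 2.87, 6.10 and 3.27 CP10K in WT CON, WT FSK and WT Ex-4 delta cells, and at 2.95, 5.42 and 2.84 under the same treatments in the mutant. The mutant over WT ratio in CON was 1.03 (0.800 to 1.33). Both FSK columns lay above the other 4, with an FSK over CON ratio of 2.13 (1.69 to 2.70) in WT and 1.84 (1.52 to 2.22) in the mutant. Hhex was at 0.938, 1.92 and 1.23 CP10K in WT and at 0.865, 1.16 and 0.869 in the mutant, and its mutant over WT ratio in CON was 0.922 (0.583 to 1.47). On these counts, differences of Hhex smaller than those bounds could not be detected.

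Most of the delta-enriched genes were lower in the mutant. All 28 were kept by the filter, 21 counted as lower and 0 as higher, beside 4.79% and 2.27% of all kept genes, and their median difference was -1.12. The same 2 columns entered the choice of the genes, which asked for a high level in both. With the genes chosen in the 4 treated conditions, which the contrast does not use, 14 of 18 were lower and 0 higher. By intervals, 24 of the 28 were lower with Poisson intervals apart and 1, Baiap3, was higher.

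Kcnd2 had the lowest difference of the 28. It was at 24.0, 16.7 and 5.56 CP10K in WT CON, FSK and Ex-4 delta cells and at 4.04, 14.1 and 3.51 in the mutant, a mutant over WT ratio in CON of 0.169 (0.145 to 0.195) and a difference of -2.31. In beta and alpha cells its difference was 0.08 and -0.14, but WT CON levels of 0.063 and 0.31 CP10K there left little room to fall. Unc5c followed, at 26.0, 20.5 and 7.30 CP10K in WT and 5.53, 12.9 and 5.34 in the mutant, with differences of -2.05 in delta, -0.999 in beta and -1.69 in alpha cells. Fgf14 was at 35.9, 20.3 and 8.78 CP10K in WT and 8.90, 15.1 and 8.14 in the mutant. Its CON difference was -1.90 in delta, -0.06 in beta and -1.46 in alpha cells, and its WT CON beta level was 0.30 CP10K. For each of the 3 genes the WT CON value was the highest of the 6 and the mutant Ex-4 value the lowest.

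Ncam2 was at 13.1, 18.5 and 4.12 CP10K in WT and 3.32, 12.6 and 3.64 in the mutant, a CON difference of -1.70 in delta cells. Its difference was 0.02 in beta and -0.03 in alpha cells, where WT CON levels of 0.12 and 0.33 CP10K left little room to fall. Dscam was at 34.0, 39.0 and 14.4 CP10K in WT and 10.0, 23.0 and 9.08 in the mutant, with a CON difference of -1.67. Asic2 was at 81.5, 46.3 and 32.0 CP10K in WT and 28.7, 39.0 and 27.6 in the mutant, so that WT CON was the highest of the 6 columns and WT FSK came next. The CON difference of Asic2 was -1.47 in delta, -0.18 in beta and -1.32 in alpha cells. Among the genes not past 1.5-fold, Cacna1h was at 2.54 and 2.52 CP10K in the CON columns (ratio 0.995, 0.760 to 1.31) and Baiap3 at 4.91 and 6.36 (ratio 1.29, 1.08 to 1.56). Rgs9, Stk32a, Adam22 and Cacna2d2 had differences between -0.54 and -0.21.

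**Figure D3:**
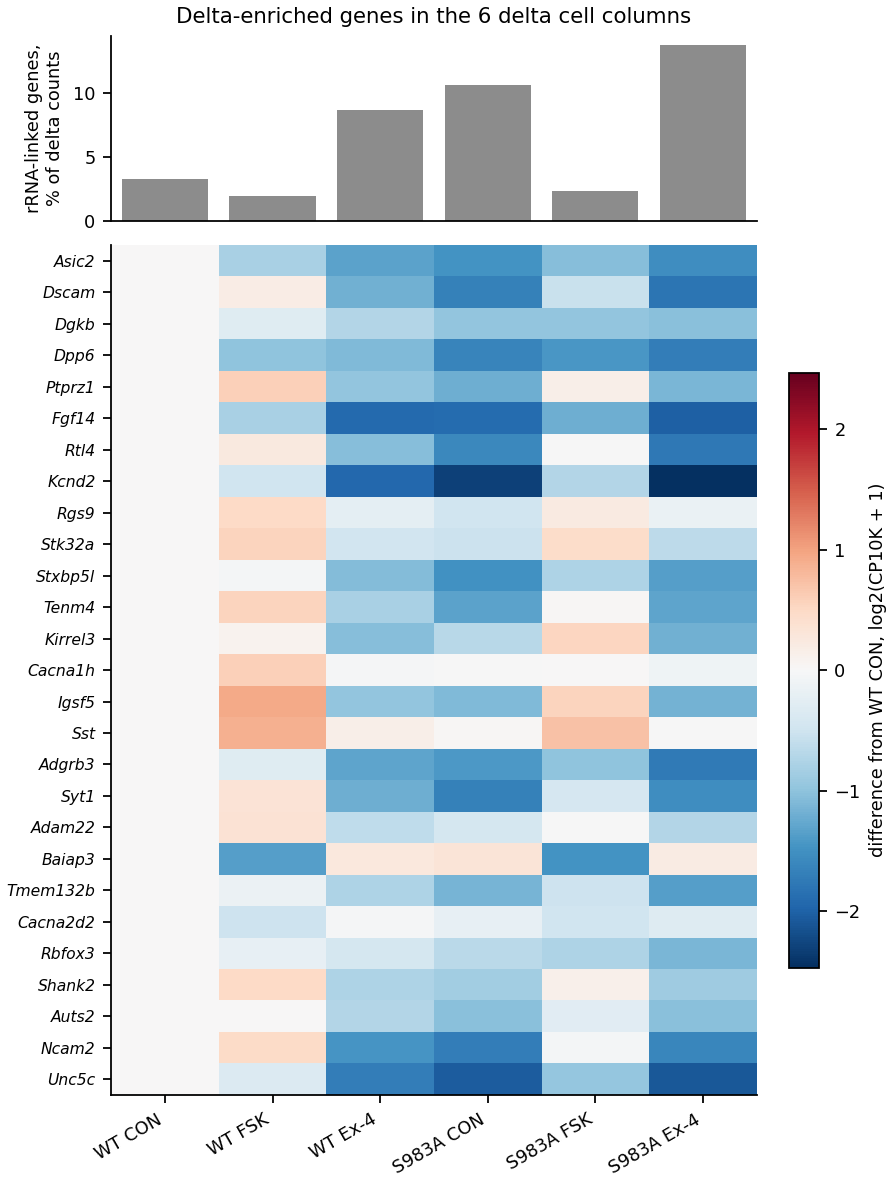
Top, share of delta cell counts taken by the 13 genes on the ribosomal RNA linked and mitochondrial list, in percent from 0, in each delta column. The list also holds the 7SK RNA gene Rn7sk. Below, difference of log2(CP10K + 1) from WT CON (color) for 27 of the 28 delta-enriched genes (rows) in the 6 delta columns. The shares run from 1.90% in WT FSK to 13.8% in mutant Ex-4, and the median difference of the 28 genes from WT CON is 0.14 in WT FSK, -0.89 in WT Ex-4, -1.12 in mutant CON, -0.34 in mutant FSK and -1.18 in mutant Ex-4.

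The genotype difference was smaller between treated islets. In FSK, 6 of the 28 genes were lower and 0 higher in mutant delta cells, with a median of -0.40, beside 0.270% of kept genes lower and 0.140% higher. In Ex-4, 5 were lower and 0 higher, with a median of -0.26, beside 0.184% lower and 0.0972% higher. Of the 28 genes, 26 were below 0 in CON, 26 in FSK and 27 in Ex-4, and 23 were below 0 in all 3. Of the 9256 kept genes, 4310 were below 0 in CON, 3145 in FSK and 5718 in Ex-4. These comparisons use separate columns. Within WT, where the same CON column serves as control, 20 of the 28 genes were lower in Ex-4 than in CON, with a median of -0.89, beside 3.32% of kept genes.

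The share of counts from a list of genes linked to ribosomal RNA or encoded by mitochondria moved with these levels. The list also holds Rn7sk, the gene of the 7SK RNA, which is neither. The 13 genes on that list, led by Rn18s-rs5, took 3.27% of delta counts in WT CON, 1.90% in WT FSK, 8.68% in WT Ex-4, 10.6% in mutant CON, 2.34% in mutant FSK and 13.8% in mutant Ex-4. Rn18s-rs5 alone was at 205 CP10K in WT and 704 in mutant CON delta cells. Its part in the lower level of the delta-enriched genes was not tested. With the columns rescaled without 14 such genes, 20 of the 28 were lower and 0 higher, and the counts over all kept genes became 300 higher and 387 lower in place of 210 and 443.

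Gene length moved with the difference too. Over the 2263 shortest kept genes, up to 19.7 kb, the median difference was 0.13 and 0.265% of genes were lower, while over the 2263 longest, from 87.3 kb, it was -0.22 and 16.9% were lower. Of the 28 delta-enriched genes 22 were among the longest, and 19 of those were lower. Among the 256 kept genes at least as long as the median delta-enriched gene, 118 (46.1%) were lower, the delta-enriched genes included, and all 14 delta-enriched genes of that length were. After a smooth trend on length was taken out, 16 of the 28 were lower and 0 higher beside 174 lower and 223 higher of the kept genes, and the differences of Kcnd2, Unc5c and Fgf14 were -1.84, -1.66 and -1.36. The shorter members were split, with Sst and Baiap3 (4.41 and 13.9 kb) at 0.03 and 0.32 and Igsf5 (60.8 kb) at -1.09. The part of length in the difference was not tested.

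**Figure D4:**
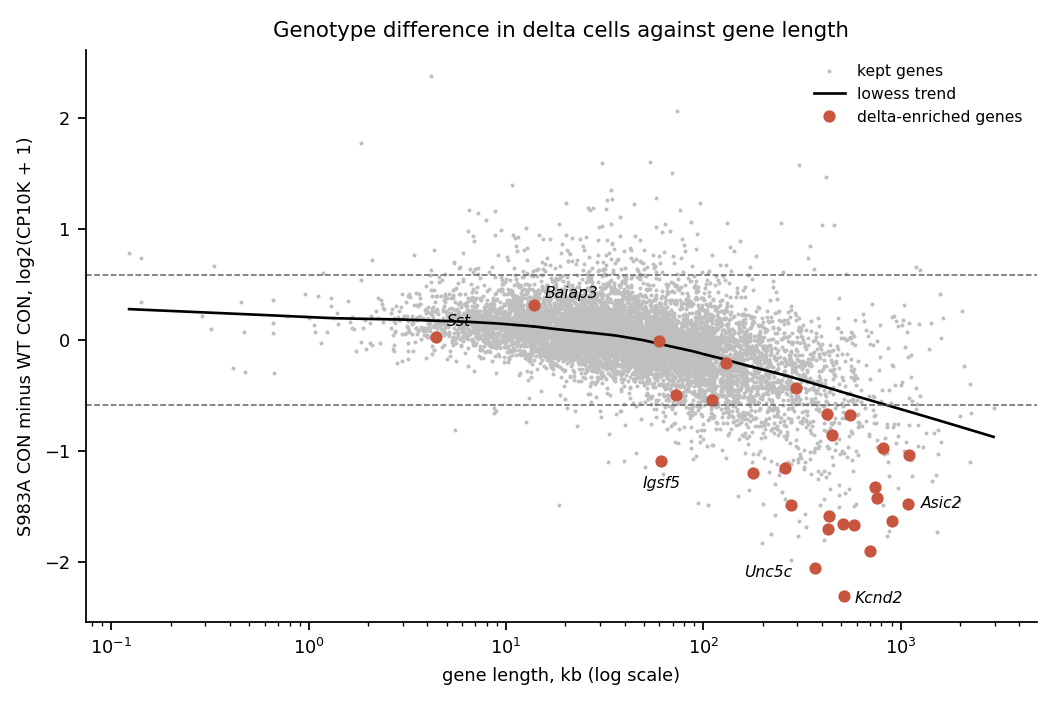
Mutant CON minus WT CON difference of log2(CP10K + 1) in delta cells against gene length in kb on a log axis, for kept genes (grey), the lowess trend over them (black line) and 27 of the 28 delta-enriched genes (red), with dashed lines at 1.5-fold. The trend falls with length, and over all 28 delta-enriched genes 16 lie more than 0.58 below it.

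The same 28 genes were read in the other endocrine types. Of them, 5 were lower in beta cells (4.20% of the same kept genes) and 7 in alpha cells (5.41%), with 0 higher in either and medians of -0.07 and -0.16. Many of the 28 are near 0 in those cells, where the log2(CP10K + 1) scale cannot show a large fall. Auts2, which both other cell types express, was lower in all 3, with differences of -1.04 in delta, -0.94 in beta and -1.08 in alpha cells, and so was Adgrb3, with -1.42, -0.95 and -1.38. Genes enriched in the other endocrine types by the same rule were also lower in their own cells: 6 of 15 in beta cells (median -0.45), 6 of 7 in alpha cells (median -0.94) and 2 of 3 in PP cells (median -0.76). A lower level of own-type genes in the mutant columns was therefore not particular to delta cells. No gene called in delta cells was called in the opposite direction in beta or alpha cells. Of the 443 genes lower in delta cells, 193 were lower in beta and 216 in alpha cells. Of the 210 higher, 122 and 129 were higher there. Over all kept genes, 4.20% and 5.41% were lower and 1.61% and 1.99% higher in beta and alpha cells.

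The lowest differences among the better expressed genes included those of Kcnd2, Unc5c, Efna5, Nrg1, Fgf14, Kcnc2, PTPRG, Gm20754 and Prr16. Efna5, an ephrin ligand of axon guidance, was at 14.3 CP10K in WT and 2.86 in mutant CON delta cells. Nrg1, an ErbB ligand, was at 32.2 and 7.89 CP10K, and it was at least as high in alpha cells (37.4 and 8.90). Kcnc2, a delayed rectifier potassium channel, was at 12.9 and 2.93 CP10K, with differences of -1.83 in delta, -0.22 in beta and 0.04 in alpha cells. Its WT CON levels in beta and alpha cells, 0.39 and 0.14 CP10K, left little room to fall.

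The 10 highest differences were those of Gm19951, Cdk8, Rn18s-rs5, Rbm25, Prpf4b, Cmss1, Prrc2c, Camk1d, Prpf38b and Ppp4r1l-ps.1. Of these Gm19951, Rn18s-rs5, Cmss1 and Camk1d were on the ribosomal RNA linked list. Cdk8, the kinase of the Mediator kinase module, was at 20.6, 29.2 and 45.9 CP10K in WT CON, FSK and Ex-4 delta cells and at 89.1, 28.1 and 65.0 in the mutant. Its CON difference was 2.06 in delta, 2.13 in beta and 2.26 in alpha cells. The other members of that list (Cdk19, Ccnc, Med12, Med12l, Med13, Med13l and Med14) were not past 1.5-fold in delta cells. Med14 itself was at 0.717 CP10K (0.469 to 1.05) in WT CON and 0.388 (0.243 to 0.588) in mutant CON delta cells; a point mutation need not alter its mRNA, so this does not check the genotype. Rbm25, Prpf4b and Prpf38b, all with roles in splicing, were at 3.75, 2.98 and 1.49 CP10K in WT CON and at 13.4, 11.0 and 5.56 in mutant CON.

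The lists of delta cell functions were read against the 4.79% of kept genes that were lower and the 2.27% that were higher. Of 27 kept neurite and synaptic adhesion genes, 14 were lower and 0 higher, with a median of -0.65. Beside Dscam, Ncam2, Unc5c and Ptprz1 these included Nlgn1, a postsynaptic partner of neurexins (13.8 to 3.67 CP10K) and the slit receptor gene Robo2 (5.90 to 2.93). The median of the same genes was -0.05 in beta and -0.21 in alpha cells, where 9 and 8 were lower. This list was made with earlier results of these data known, and 4 of its members are delta-enriched.

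Of 28 kept excitability genes, 9 were lower and 0 higher, with a median of -0.27. The lower ones were the potassium channel genes Kcnb2 (19.9 to 7.24 CP10K), Kcnma1, Kcnh7 and Kcnd2 and the channel partner Kcnip4, the calcium channel subunits Cacna2d1 and Cacna2d3 (11.5 to 3.48), the store release channel Itpr1 and the cation channel Trpm3 (32.3 to 8.78). Abcc8, the sulfonylurea receptor subunit of the KATP channel, had a mutant over WT ratio of 1.01 (0.935 to 1.10), and Cacna1a, the P/Q-type calcium channel, at 15.3 and 16.5.

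Of 18 kept receptor and input genes, 4 were lower and 0 higher, with a median of -0.18, among them Casr (4.22 to 2.12 CP10K), the muscarinic receptor gene Chrm3 (6.35 to 3.37) and the kainate receptor gene Grik2. The incretin receptor genes were not among them, with Glp1r at 1.90 and 1.87 CP10K and Gipr at 1.08 and 1.70. Both stood lower in the FSK columns, Glp1r at 0.304 and 0.475 and Gipr at 0.117 and 0.333 CP10K in WT and mutant. Ffar4, a receptor for long-chain fatty acids, was at 0.855 CP10K (0.581 to 1.21) in WT CON and 0.283 (0.161 to 0.459) in mutant CON delta cells, with intervals apart and a difference of -0.53. Of the 11 kept delta markers 5 were lower (among them Rbp4, Casr, Spock3 and Nrg1) and 0 higher, with a median of -0.23. Rbp4 was at 1.43 and 0.547 CP10K in the CON columns (ratio 0.381, 0.236 to 0.606) and Spock3 at 2.98 and 0.759 (ratio 0.255, 0.175 to 0.366).

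Of 37 kept cAMP signalling genes, 8 were lower and 0 higher, with a median of -0.26. They were the cyclases Adcy2 and Adcy8, the G protein subunit Gnas (29.4 to 18.3 CP10K), the phosphodiesterases Pde3a, Pde3b, Pde4d (33.1 to 13.6) and Pde7b, and the kinase Sik2. Gnas and Pde10a were far higher in both FSK columns, Gnas at 142 CP10K in WT and 115 in the mutant and Pde10a at 139 in both.

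Of 30 kept prohormone processing and granule genes, 3 were higher and 5 lower, with a median of -0.05. The higher ones encode granins (Scg2 0.579 to 1.57, Chga 2.62 to 5.97 and Chgb 1.46 to 2.84 CP10K), and all 3 genes are short. The lower ones were the convertase Pcsk2 (57.2 to 37.1), the amidating enzyme Pam, Syt1, the active zone gene Rims1 and Rab3b. Of 21 kept islet transcription factors, 1, Pax6 (3.81 to 6.52 CP10K), was higher and 6 (among them Rfx3, Foxo1, Meis1, Meis2 and Pbx3) were lower, with a median of 0.01. Meis2, a TALE partner of homeodomain factors, was at 25.4 CP10K in WT CON and at 14.7 in mutant CON. Of 35 kept cytosolic ribosomal protein genes none was past 1.5-fold in either direction, with a median of 0.15. Of the 11 kept beta markers, Ins1 was higher (0.717 to 1.61 CP10K) and Slc2a2, Iapp, Slc30a8 and Ero1b were lower in delta cells, and in beta cells Ins1 was likewise higher and the other 4 lower.

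**Figure D5:**
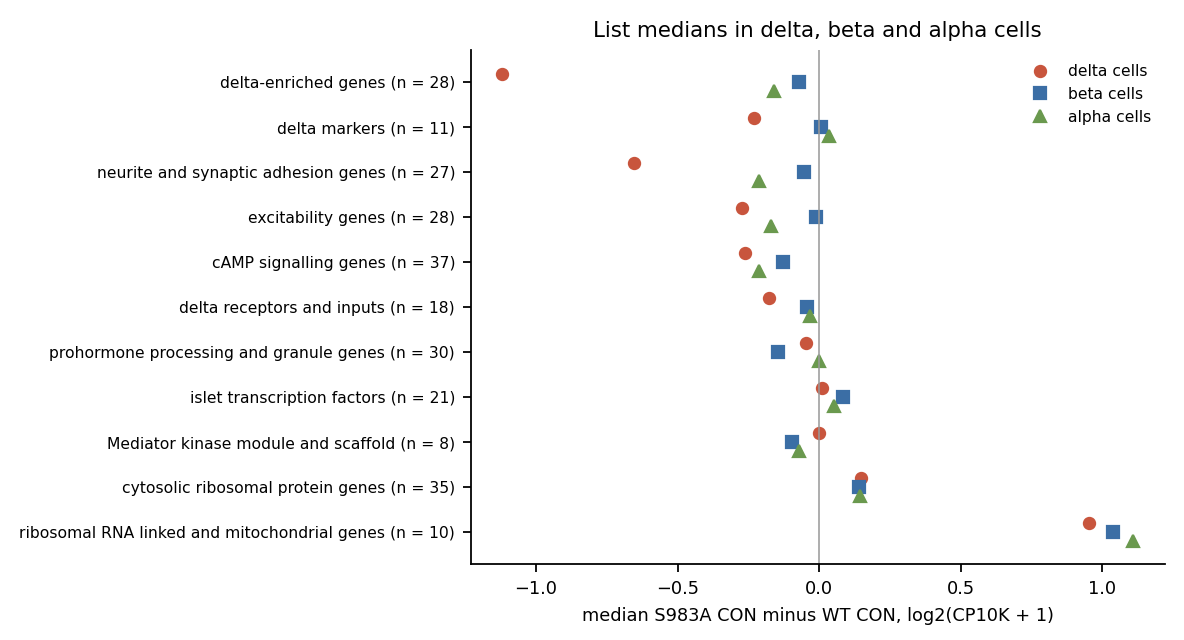
Median mutant CON minus WT CON difference of log2(CP10K + 1) for each gene list in delta (circles), beta (squares) and alpha cells (triangles), over the genes kept in delta cells (n beside each name). The delta-enriched genes lie at -1.12 in delta cells and at -0.07 and -0.16 in beta and alpha cells, while the ribosomal RNA linked genes lie between 0.95 and 1.11 in all 3. Many delta-enriched genes are near 0 in beta and alpha cells, where this scale cannot show a large fall.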

How the data were processed

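Nuclear RNA of islets from 6 conditions was read in 8 sublibraries. Per the study's methods, the authors counted reads against mm39, removed nuclei at the extremes of counts and features and those with a high mitochondrial share, clustered and named the nuclei, and pooled each condition and cell type. The deposited values are natural logs, ln(1 + 10000 × count / column total), for 17362 genes in 54 columns. The annotation release, strand setting and whether pooled counts were raw or model-corrected are not given in the sources used here. The logs were undone to counts per 10000 (CP10K), and whole counts were recovered for 100% of values within 0.001. Column totals gave exact 95% Poisson intervals for counting error only. With 1 value per condition and cell type no test was made: differences are of log2(CP10K + 1), called at 1.5-fold. A gene with no value above 0 in a whole condition is written as listed at 0, and other zeros carry a floor of 3 counts. Lowess (span 0.3, statsmodels 0.14.6) removed the length trend, and intervals came from scipy 1.17.1. Spans and overlaps came from GENCODE on GRCm39 and promoters from RefSeq on GRCm38.p6, and no position was carried between builds. The recovery of counts and the calls were tested on simulated data.

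The members, the gene lists and the rules were chosen with earlier results of these data known. Genes named are Sst, Hhex, members of the lists, the 20 delta-enriched genes with the largest gap, the 5 enriched genes with the largest genotype difference in each direction, and the 10 highest and 10 lowest genotype differences among kept genes at or above the median level with intervals apart. Alternatives covered the fold limit, the pseudocount, the filter, the cell types compared, the conditions used and rescaling. No column of other samples was left out. Some genes that the rule names are not reported here, and counts include them.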

Additional observations from a re-analysis of the deposited data

How the results depend on the processing

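The 28 delta-enriched genes became 2 at a 4-fold limit, 45 by linear ratios with 0.1 CP10K added, 15 against all 8 other cell types whatever their depth, 55 against beta and alpha cells only, 64 against the summed other 8, 76 in WT CON alone and 18 in the 4 treated conditions. The same 28 genes were found in mutant CON alone. Dropping the minimum level could not change the list, because a difference of 1 in log2(CP10K + 1) already needs 1 CP10K. Rescaling without ribosomal RNA linked and mitochondrial genes also gave 28, of which 27 were shared, with Unc5c out and Gm49948 in. The 210 higher and 443 lower genes in mutant delta cells became 2784 and 2206 by linear ratios with 0.01 times the median level added, 830 and 937 with 1 times the median, 40 and 120 at 2-fold, 300 and 387 after rescaling, and 223 and 174 with the length trend removed. Of the 28, 16 were lower in the mutant at 2-fold and with the length trend removed, 20 after rescaling and 21 under the other pseudocounts and filters. By the binomial interval of the ratio, an alternative chosen after seeing the data, 24 were lower and 1 (Baiap3) higher. With the list itself redefined, the lower genes were 2 of 2 at 4-fold, 33 of 45 by linear ratios, 10 of 15 against all 8 types, 42 of 55 against beta and alpha cells, 50 of 64 against the summed types, 59 of 76 in WT CON alone and 14 of 18 in the treated conditions, with 0 higher in each. The 76 genes were chosen on a high level in WT CON delta cells, the reference of the contrast. That choice favours a lower mutant value, so their count carries no support. The Sst difference was 0.03, 0.12 after rescaling and -0.15 without the length trend, and that of Hhex was -0.06, -0.00 and -0.22. The cause of these shifts was not tested. No paired analysis was possible because each condition has 1 value per cell type and no replicate numbers, and for the same reason no replicate could be left out. Depth limits low genes such as Hhex, Ghsr and Crhr2, whose upper limits in the WT CON ductal and neuron columns lay above the delta level.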
